A study of Agaricus bisporus with 16 samples.

Results

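Among the genes measured in compost mycelium of the button mushroom, Agaricus bisporus, 58 of 10438 were silent in the commercial strain A15 and expressed in at least 1 of 219 30P, 245 AMA-7 and 065 BP-8. They were chosen by their deposited levels, in FPKM, a read abundance corrected for transcript length and library size. In 33 of them the gene is not listed in the A15 files and reached 1 FPKM in 1 or more of the 12 libraries of the other strains. These 33 have no A15 value, so their silence in A15 is an assumption. For 4 of the 33 that level was reached in a single library. The other 25 are listed at under 0.5 FPKM in all 4 A15 libraries and reached 1 FPKM in all 4 libraries of at least 1 other strain. Because these values chose the genes, the differences between A15 and the other strains are given as a description, with no test.

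The isolates 219 30P, 245 AMA-7 and 065 BP-8 were grown beside A15, the commercially cultivated one. Spawn on wheat kernels was added to compost of wheat straw, horse and chicken manure and gypsum. Colonised compost was taken on day 39, when the first flush of mushrooms was present, and on day 27, at pinning, when primordia form, with 2 libraries per strain and day and 16 in all. The series was designed to look for strains that use compost components which A15 uses poorly.

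Isolates of a fungal species share a core of genes and differ in an accessory part, which can be missing, present as a diverged copy, or present but not transcribed in a given isolate. In a table of RNA levels those states all give a low value, so they cannot be told apart here. The button mushroom in compost lives as mycelium that secretes oxidases and hydrolases, and genes that vary between isolates are one place where strains can differ in such traits. None of the 58 genes carries a name in the RefSeq table of the H97 assembly (Agabi_varbisH97_2), where all 58 locus tags were found. Across all genes in the files 88 carry a symbol. The genes are therefore called by locus tag, and no role is given to any of them.

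The libraries differed little in their summed values, which lay between 832823 and 913010 FPKM. The FPKM worth of 1 read, as read from genes seen at the lowest step, varied 1.105-fold at most between libraries. Only values near a gene's lowest value above 0 entered that estimate, so it could not show a large difference. The A15 files list 9520 genes. No gene listed there is at 0 in all 4 A15 libraries, while 775 genes are at 0 in all 12 other libraries, and 729 of the 918 genes missing from the A15 files are at 0 in the other 12 as well. The A15 files thus follow another listing rule than the rest, and its effect and that of strain cannot be told apart. All 3 compost mycelium markers, the oxidase genes lcc1, lcc2 and MnP, were detected in every library. In 245 AMA-7 the laccase genes lcc1 and lcc2 lay wholly below A15, at 12.86 to 133.49 FPKM against 293.77 to 740.35 FPKM and at 150.70 to 621.35 FPKM against 963.33 to 2150.88 FPKM. In 219 30P and 065 BP-8 both overlapped A15, and so did MnP in all 3 strains. Of 10 mushroom tissue markers only the lectin gene abl was found by symbol. It had 2.60 to 4.40 FPKM in 219 30P, wholly below the 23.16 to 217.80 FPKM of A15, while 245 AMA-7 (21.31 to 51.62) and 065 BP-8 (4.53 to 263.84) overlapped A15. The part of these markers in the results below was not tested, and in bulk compost RNA fewer cells of a type and less RNA per cell cannot be told apart. Nothing in the labels says that duplicates came from separate crates. The p-values thus measure only how far these samples spread, and that spread may be technical. Each fit also shares a single spread per gene over all its strains and days. The SE and p-value of a strain therefore include groups where the gene is near 0 and duplicates that differ in another strain.

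**Figure D1:**
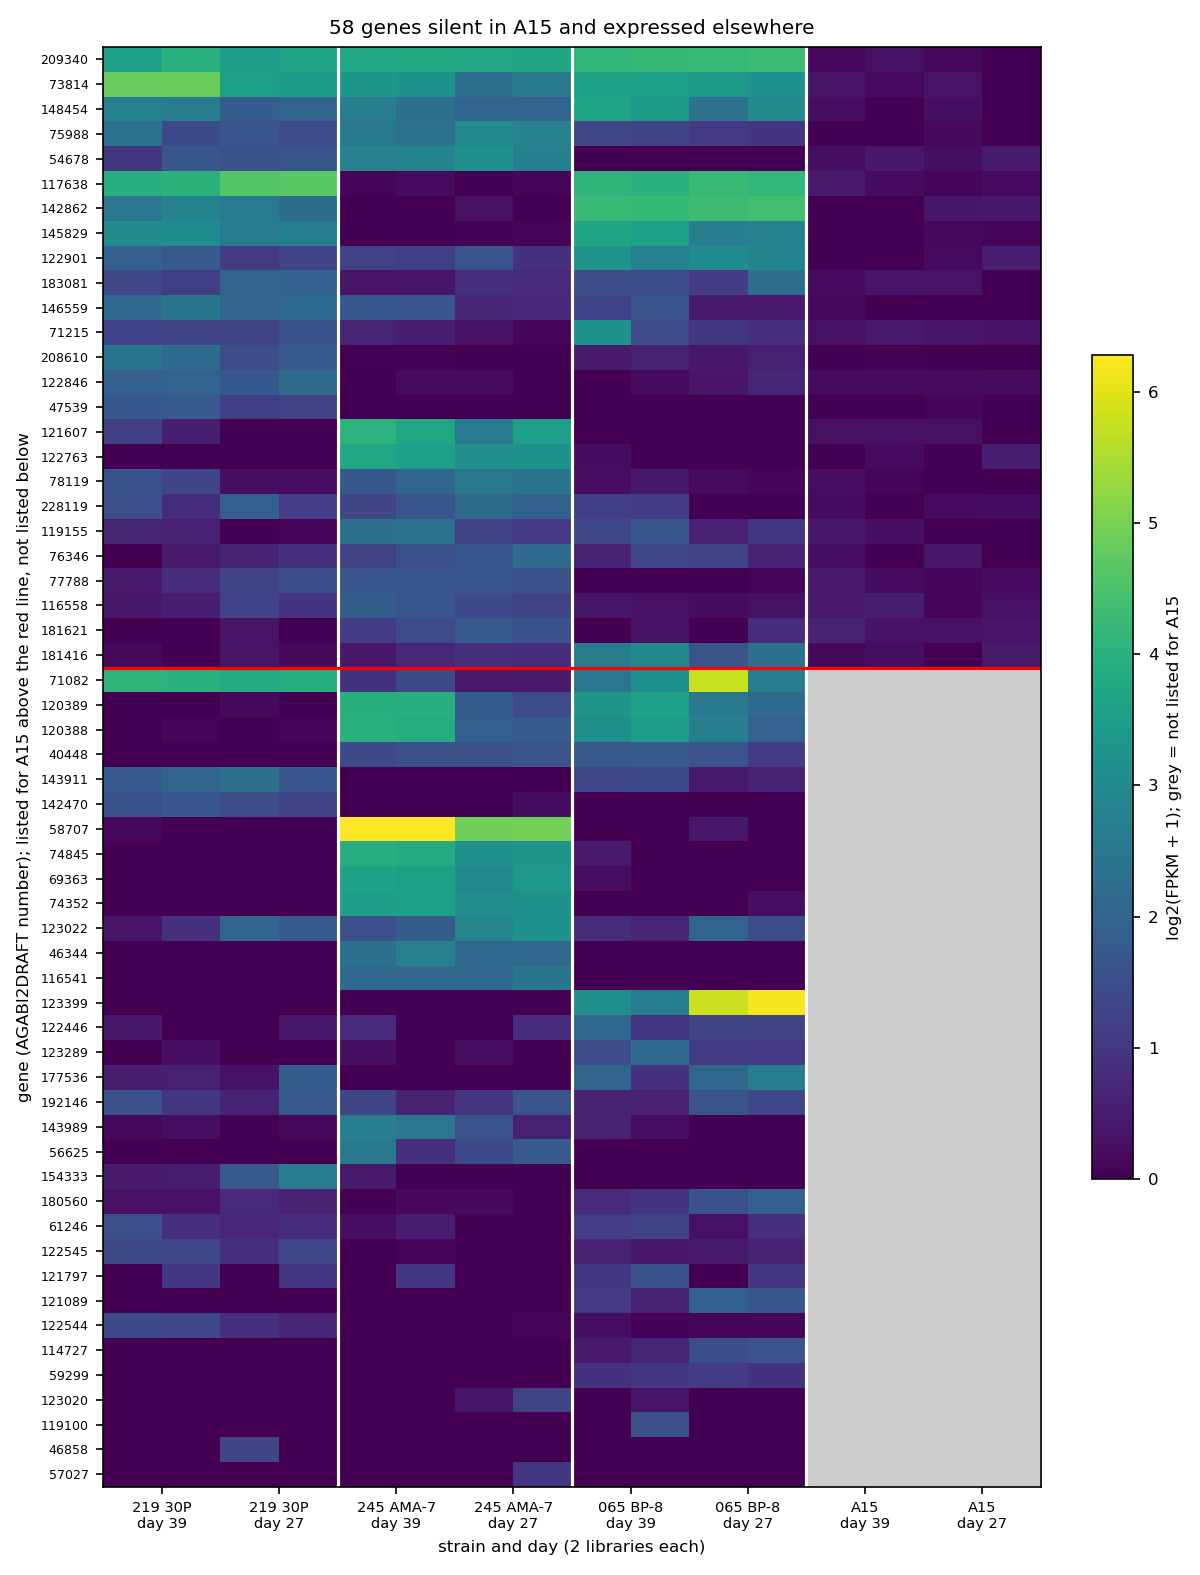
Levels of the 58 genes in the 16 libraries, as log2(FPKM + 1), with 2 libraries for each strain and day. Genes above the red line are listed for A15 and those below it are not (grey); many rows are bright in the columns of a single strain, and AGABI2DRAFT_209340 in the top row is bright in all 12 libraries outside A15.

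The largest group of these genes reached 1 FPKM in all 4 libraries of a single strain only. Of the 58, 27 were at 1 FPKM or more in all 4 libraries of exactly 1 strain, 11 in exactly 2 strains and 3 in all 3. The remaining 17, all of them unlisted for A15, did not reach that level in all 4 libraries of any strain. Of the 27, 16 belonged to 245 AMA-7, 7 to 219 30P and 4 to 065 BP-8. Of these, 7, 3 and 2 were under 0.5 FPKM in all 8 libraries of the other pair of strains, and the rest reached 0.5 FPKM in at least 1 of those libraries. Some of the rest also passed 1 FPKM there: AGABI2DRAFT_228119 was at 1 FPKM or more in 9 of the 12 libraries. Counting shared genes too, 24 were expressed in all 4 libraries of 245 AMA-7, 18 in 219 30P and 16 in 065 BP-8. These counts follow from the rule and carry no test.

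The genes were expressed at low to moderate levels. In 219 30P the 18 genes had a median of 3.0 FPKM, against 30.52 FPKM for all 8288 genes at 1 FPKM or more in its 4 libraries. In 245 AMA-7 the medians were 5.13 FPKM for the 24 genes and 31.02 FPKM for all 8305. In 065 BP-8 they were 7.60 FPKM for the 16 genes and 31.54 FPKM for all 8256. The most abundant of them was AGABI2DRAFT_58707, with a mean of 52.99 FPKM over the 245 AMA-7 libraries, which put it at place 2769 from the top of all genes in that strain. Only 16 of the 58 reached 10 FPKM in any library.

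Among the 25 genes listed for A15, 3 were at 1 FPKM or more in every library of the other strains. The highest of the 3 by its mean was AGABI2DRAFT_209340. It had 11 and 14.97 FPKM on day 39 and 10.51 and 11.82 on day 27 in 219 30P, 12.27 and 12.99 on day 39 and 12.31 and 12.12 on day 27 in 245 AMA-7, and 16.21 and 17.47 on day 39 and 17.67 and 18.70 on day 27 in 065 BP-8. In A15 it had 0.11 and 0.22 FPKM on day 39 and 0.10 and 0.00 on day 27. All 12 libraries of the other strains stood far above the A15 libraries, and within the other strains the level varied less than 2-fold.

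AGABI2DRAFT_73814 was also expressed in all 3 strains, with 27.21 and 27.96 FPKM on day 39 and 10.67 and 9.75 on day 27 in 219 30P. It had 9.09 and 8.34 FPKM on day 39 and 3.96 and 4.83 on day 27 in 245 AMA-7, and 10.90 and 10.85 on day 39 and 9.68 and 8.12 on day 27 in 065 BP-8. A15 had 0.28 and 0.14 FPKM on day 39 and 0.26 and 0.00 on day 27. The day 39 libraries of 219 30P were the highest, and no library of another strain came near the A15 values. AGABI2DRAFT_148454 was at 2.58 to 5.70 FPKM in 219 30P, 2.99 to 5.44 FPKM in 245 AMA-7 and 4.17 to 11.96 FPKM in 065 BP-8, against 0.00 to 0.18 FPKM in A15.

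Another 3 listed genes were expressed in 219 30P and 065 BP-8 and silent in both 245 AMA-7 and A15. AGABI2DRAFT_117638 had 14.48 and 15.46 FPKM on day 39 and 23.23 and 24.21 on day 27 in 219 30P, and 15.90 and 14.82 on day 39 and 18.06 and 16.98 on day 27 in 065 BP-8. It did not pass 0.13 FPKM in 245 AMA-7 and lay at 0.06 to 0.38 FPKM in A15. The first pair of strains thus shared a level and the other pair was near 0. AGABI2DRAFT_142862 ran from 3.69 to 6.02 FPKM in 219 30P and from 17.63 to 19.78 FPKM in 065 BP-8, with at most 0.22 FPKM in 245 AMA-7 and 0.34 FPKM in A15. AGABI2DRAFT_145829 ran from 4.90 to 7.29 FPKM in 219 30P and from 5.39 to 11.90 FPKM in 065 BP-8, with at most 0.06 FPKM in 245 AMA-7 and 0.10 FPKM in A15. In all, 5 listed genes were at 1 FPKM or more in all 4 libraries of 219 30P and of 065 BP-8 but not of 245 AMA-7. The 2 not described above, AGABI2DRAFT_122901 and AGABI2DRAFT_183081, were not silent in 245 AMA-7, at 0.87 to 2.10 FPKM and 0.26 to 0.81 FPKM.

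Other listed genes reached 1 FPKM in all 4 libraries of 1 strain alone, some with lower values elsewhere. AGABI2DRAFT_122763 had 12.61 and 11.17 FPKM on day 39 and 7.53 and 8.44 on day 27 in 245 AMA-7, and was at 0.00 in all 219 30P libraries and at 0.15 FPKM or less in 065 BP-8. In A15 it was at 0.00 to 0.45 FPKM. AGABI2DRAFT_121607 had 15.59 and 12.63 FPKM on day 39 and 4.87 and 10.59 on day 27 in 245 AMA-7. It was at 0.00 in 065 BP-8, at up to 1.28 FPKM in 219 30P, and at 0.00 to 0.22 FPKM in A15. AGABI2DRAFT_47539 had 2.33 and 2.35 FPKM on day 39 and 1.25 and 1.31 on day 27 in 219 30P and was at 0.00 in both other strains. A15 had 0.06 FPKM in 1 library and 0.00 in 3. AGABI2DRAFT_181416 was the single listed gene of 065 BP-8 alone, with 5.19 and 6.61 FPKM on day 39 and 2.16 and 3.99 on day 27. It stayed at or below 0.80 FPKM in 245 AMA-7, 0.27 in 219 30P and 0.36 in A15.

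The A15 values of the 25 listed genes had a median mean of 0.14 FPKM and a highest value of 0.48 FPKM. Of their 100 A15 values 34 were 0. In 7 genes all 4 A15 libraries were above 0, and in 4 genes 3 of the 4 A15 libraries were at 0. Summed over the 25 genes, the libraries of the other strains held between 70.18 and 115.56 FPKM and those of A15 between 3.17 and 4.13 FPKM.

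Of the 33 unlisted genes, AGABI2DRAFT_58707 and AGABI2DRAFT_123399 were the highest, each in a single strain. AGABI2DRAFT_58707 had 76.10 and 76.78 FPKM on day 39 and 29.01 and 30.08 on day 27 in 245 AMA-7, and was at 0.10 FPKM or less in 219 30P and 0.34 or less in 065 BP-8. AGABI2DRAFT_123399 had 7.78 and 5.37 FPKM on day 39 and 53.45 and 72.63 on day 27 in 065 BP-8, and was at 0.00 in all 8 libraries of 219 30P and 245 AMA-7. The first was higher on day 39 and the second on day 27, without overlap between days. AGABI2DRAFT_71082 had 15.87 and 15.21 FPKM on day 39 and 13.41 and 14.00 on day 27 in 219 30P. In 065 BP-8 it had 4.57 and 8.08 on day 39 and 52.70 and 5.38 on day 27, so that 1 library stood far above its duplicate. In 245 AMA-7 it had 1.63 FPKM or less.

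AGABI2DRAFT_74845, AGABI2DRAFT_69363 and AGABI2DRAFT_74352 were 3 unlisted genes with the same profile. In 245 AMA-7 they had 14.19 and 13.63, 11.42 and 10.97, and 10.38 and 10.80 FPKM on day 39. On day 27 they had 8.13 and 8.46, 6.72 and 9.19, and 7.60 and 7.91 FPKM. All 3 were at 0.00 in 219 30P and at 0.36 FPKM or less in 065 BP-8. Of the 7 unlisted genes expressed in all 4 libraries of 245 AMA-7 alone, 6 stayed below 0.5 FPKM in all 8 libraries of the other pair. The exception, AGABI2DRAFT_123022, was at 1.88 to 8.40 FPKM in 245 AMA-7, 0.28 to 3.16 FPKM in 219 30P and 0.56 to 3.05 FPKM in 065 BP-8.

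The 17 unlisted genes that no strain expressed in all 4 libraries had means between 0.09 and 1.36 FPKM over the 12 libraries. Of these, 4 reached 1 FPKM in a single library, among them AGABI2DRAFT_57027 at 1.04 FPKM and AGABI2DRAFT_123020 at 1.45 FPKM. AGABI2DRAFT_57027, AGABI2DRAFT_46858 (1.48 FPKM) and AGABI2DRAFT_119100 (1.94 FPKM) were at 0.00 in every other library outside A15. AGABI2DRAFT_121797 had only values of 0.00, of 0.98 to 1.03 FPKM and of 1.94 FPKM. Without read counts, the number of reads behind such values is not known. Some lie close to the cut-off: the highest unlisted gene just outside, AGABI2DRAFT_74199, reached 0.99 FPKM. For listed genes the highest A15 value just inside the cut-off was 0.48 FPKM, in AGABI2DRAFT_181621, and just outside it 0.51 FPKM, in AGABI2DRAFT_119018. The lowest library of the deciding strain was 1.11 FPKM just inside, in AGABI2DRAFT_119155, and 0.91 FPKM just outside, in AGABI2DRAFT_188435.

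Many of the genes lay next to each other or next to other genes that are silent in A15, in the order of genes on the H97 assembly. That order counts only genes present in the data, and it was not used to choose the 58. Of the 58 genes, 15 had another of the 58 as the next gene, in 7 runs. Among all 10373 genes placed, 96 outside the 58 lay next to one of the 58. Next to 34 of the 58 (58.6%) lay a gene that is unlisted or under 0.5 FPKM in all A15 libraries. That held for 15.6% of all 10373 genes placed. Another of the 58 counts as such a neighbour. The share was 66.7% of the 33 unlisted genes and 48.0% of the 25 listed genes. The A15 levels that define such a neighbour also chose the 58. The share for other genes silent in A15 was not computed, so the 58 cannot be set apart from those genes here.

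The longest run held AGABI2DRAFT_40448, AGABI2DRAFT_120388 and AGABI2DRAFT_120389, all unlisted for A15 and all near 0 in 219 30P. AGABI2DRAFT_120388 had 14.93 and 13.89 FPKM on day 39 and 2.75 and 2.51 on day 27 in 245 AMA-7, and 7.53 and 10.33 on day 39 and 5.40 and 2.94 on day 27 in 065 BP-8. AGABI2DRAFT_120389 had 14.59 and 14.40 FPKM on day 39 and 2.54 and 1.76 on day 27 in 245 AMA-7, and 8.54 and 11.17 on day 39 and 4.70 and 3.58 on day 27 in 065 BP-8. The 2 genes had almost the same levels in every library and were higher on day 39. AGABI2DRAFT_40448 was lower, with 1.64 and 1.95 FPKM on day 39 and 1.95 and 2.17 on day 27 in 245 AMA-7, and 2.39 and 2.56 on day 39 and 2.06 and 1.14 on day 27 in 065 BP-8. The genes flanking the run, AGABI2DRAFT_179887 and AGABI2DRAFT_73290, stayed at or below 0.66 FPKM in the other strains and 0.42 FPKM in A15.

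A second run held AGABI2DRAFT_209340 and AGABI2DRAFT_75988. AGABI2DRAFT_75988 was at 1.65 to 4.10 FPKM in 219 30P, 4.04 to 7.14 FPKM in 245 AMA-7 and 0.94 to 1.51 FPKM in 065 BP-8, against 0.00 to 0.11 FPKM in A15. On one side of the run lay AGABI2DRAFT_75626, which is not among the 58 and was chosen for naming after its values were seen. It had 7.01 and 6.31 FPKM on day 39 and 4.42 and 4.20 on day 27 in 219 30P, 10.06 and 8.23 on day 39 and 12.89 and 12.05 on day 27 in 245 AMA-7, and 7.36 and 8.33 on day 39 and 7.11 and 7.08 on day 27 in 065 BP-8. In A15 it had 1.32 and 0.37 FPKM on day 39 and 0.71 and 1.35 on day 27. Averaged over both days it was higher than in A15 by 1.75 ± 0.16 in 219 30P, 2.63 ± 0.16 in 245 AMA-7 and 2.16 ± 0.16 in 065 BP-8 (log2 of FPKM + 1, SE; limma, adjusted p = 2.93e-06, 9.77e-08 and 6.34e-07, with the same 4 A15 libraries in all 3). With a pseudocount of 5 FPKM these differences shrank to as little as 0.81, and with 0.1 FPKM they reached up to 3.51. On the other side, AGABI2DRAFT_226337 ranged from 44.64 to 120.56 FPKM in the other strains and from 72.19 to 90.76 FPKM in A15, which lay within that range.

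**Figure D2:**
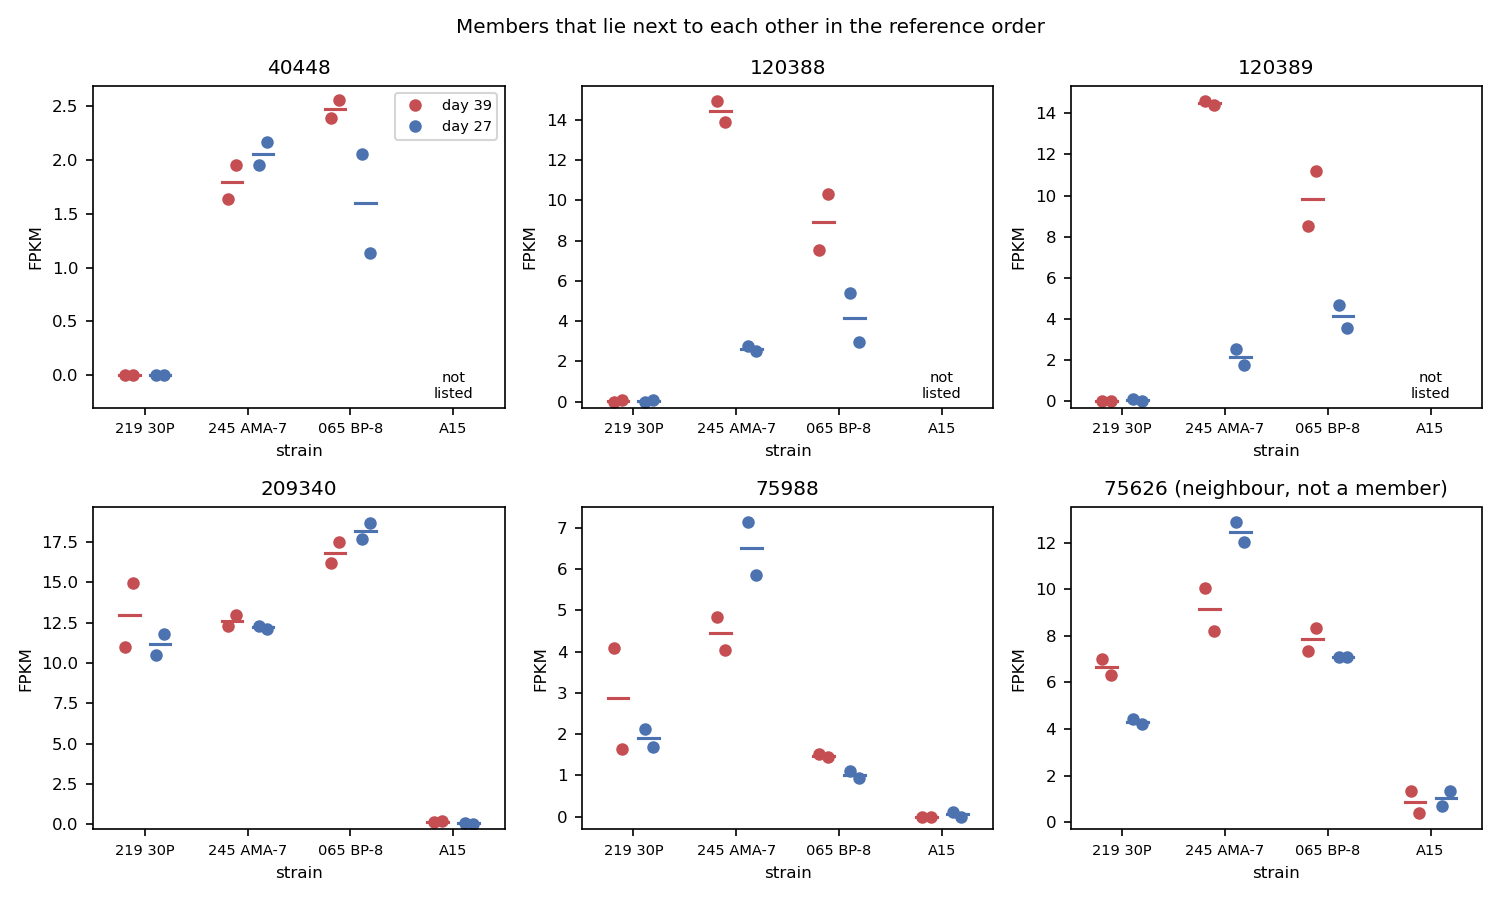
FPKM by strain and day for 2 runs of adjacent genes; each point is a library and each bar the mean of the 2 libraries. The upper row shows a run that is unlisted for A15 and near 0 in 219 30P, and the lower row AGABI2DRAFT_209340, AGABI2DRAFT_75988 and their neighbour AGABI2DRAFT_75626, all lowest in A15.

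Adjacent genes did not always share a strain. AGABI2DRAFT_58707 was expressed in 245 AMA-7 alone, as given above. Its neighbour AGABI2DRAFT_59299 was at 0.00 in all libraries of 219 30P and 245 AMA-7 and had 0.87 and 1.04 FPKM on day 39 and 1.13 and 0.88 on day 27 in 065 BP-8. AGABI2DRAFT_117638 and AGABI2DRAFT_142862, which share the pattern of 219 30P and 065 BP-8, were separated by a single gene, AGABI2DRAFT_203856, at 0.83 FPKM or less in the other strains and 0.50 FPKM or less in A15.

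Expression around these genes was also compared with A15, in those neighbours that are not among the 58 and could be tested. There were 96 neighbours that are not among the 58, of which 50 were at 1 FPKM or more in all 4 A15 libraries and 20 were unlisted. Of the 60 that could be tested against A15, 35 differed in 219 30P (58.3%), 17 higher and 18 lower, where 53.7% of all 9098 genes tested differed, 24.6% higher and 29.1% lower. In 245 AMA-7 35 differed (58.3%), 15 higher and 20 lower, where 55.0% of all genes differed, 28.0% higher and 27.0% lower. In 065 BP-8 33 differed (55.0%), 18 higher and 15 lower, where 46.3% of all genes differed, 22.5% higher and 23.8% lower. Their median differences were -0.04, -0.00 and 0.07 on the log2 scale, beside -0.03, 0.01 and 0.01 for all genes. The shares in 219 30P and 245 AMA-7 lay near those of all genes. The test needed genes listed for A15 and past the filter on low values, so none of the 20 unlisted neighbours entered it. It therefore cannot show whether expression of the neighbours left out differs from A15. The same A15 libraries enter all 3 comparisons.

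The change from pinning to the first flush was not used to choose the genes and was tested for each gene in every strain where all 4 of its libraries reached 1 FPKM. That gave 58 tests of 41 genes. In 19 of them the gene rose on day 39, in 4 it fell and 35 were not called (limma on log2(FPKM + 1), adjusted by the Benjamini-Hochberg method over all 9049 genes tested, threshold 0.05). Of the 18 genes with a call, 5 rose in a pair of strains and none was called in opposite directions. The set of 41 was fixed by level in every library of a strain, so neither day alone admitted a gene. The shares of all genes given below for day changes carry no such condition.

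In 245 AMA-7, 10 of 24 genes were called (41.7%, against 62.8% of all genes). Of these 8 rose on day 39 and 2 fell, where 37.8% of all genes rose and 25% fell. AGABI2DRAFT_120389 and AGABI2DRAFT_120388 rose most, 4.96-fold and 4.25-fold on the scale of FPKM + 1 (log2 changes of 2.31 ± 0.20 and 2.09 ± 0.23, SE, 2 libraries a day; limma, adjusted p = 6.36e-06 and 3.69e-05). AGABI2DRAFT_58707 rose by 1.34 ± 0.17 (adjusted p = 9.12e-05) and AGABI2DRAFT_119155, with 3.98 and 4.07 FPKM on day 39 and 1.33 and 1.11 on day 27, by 1.18 ± 0.21 (adjusted p = 0.000697). AGABI2DRAFT_73814 rose by 0.85 ± 0.14 (adjusted p = 0.000375). AGABI2DRAFT_121607 (0.87 ± 0.31), AGABI2DRAFT_74845 (0.68 ± 0.18) and AGABI2DRAFT_122763 (0.52 ± 0.17) also rose (adjusted p = 0.0339, 0.00867 and 0.0211). AGABI2DRAFT_69363 (0.46 ± 0.19) and AGABI2DRAFT_74352 (0.40 ± 0.16), with levels like those of AGABI2DRAFT_74845, were not called (limma, adjusted p = 0.0548 and 0.0545). AGABI2DRAFT_123022 fell by 1.36 ± 0.26, with 1.88 and 2.60 FPKM on day 39 and 6.25 and 8.40 on day 27 (adjusted p = 0.00122), and AGABI2DRAFT_78119 fell by 0.58 ± 0.19, with 2.32 and 3.17 FPKM on day 39 and 4.80 and 4.37 on day 27. For AGABI2DRAFT_40448, which lies in the same run as both leading genes, the log2 change was -0.13 (adjusted p = 0.587).

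In 065 BP-8, 7 of 16 genes were called (43.8%, against 62.0% of all genes). Of these 6 rose and 1 fell, where 34.3% of all genes rose and 27.7% fell. AGABI2DRAFT_123399 fell 8.47-fold on the scale of FPKM + 1 (-3.08 ± 0.21, adjusted p = 1.53e-06), the largest change among the 58 tests. AGABI2DRAFT_120389 and AGABI2DRAFT_120388 rose here too, by 1.08 ± 0.20 and 0.97 ± 0.23 (adjusted p = 0.000873 and 0.00466). AGABI2DRAFT_145829 rose by 0.90 ± 0.15, with 11.90 and 10.62 FPKM on day 39 and 5.39 and 5.73 on day 27 (adjusted p = 0.000407), and AGABI2DRAFT_148454 by 0.88 ± 0.22, with 11.96 and 9.73 on day 39 and 4.17 and 6.98 on day 27 (adjusted p = 0.00634). AGABI2DRAFT_181416 (0.79 ± 0.24) and AGABI2DRAFT_123289 (0.77 ± 0.25) rose less. AGABI2DRAFT_71082 had a log2 change of -1.38 ± 0.73 (adjusted p = 0.126), which became 0.16 without replicate 1 of day 27, the library with 52.70 FPKM, and -2.92 without its duplicate (limma, adjusted p = 0.674 and 2.49e-05). AGABI2DRAFT_40448 had 0.44 (adjusted p = 0.0802), which became 0.70 without replicate 1 of day 27 and 0.18 without replicate 2 (adjusted p = 0.0197 and 0.481), and with no filter on low values its adjusted p was 0.0443.

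In 219 30P, 6 of 18 genes were called (33.3%, against 61.7% of all genes). Of these 5 rose and 1 fell, where 27.5% of all genes rose and 34.2% fell. AGABI2DRAFT_73814 rose most, by 1.35 ± 0.14 or 2.55-fold on the scale of FPKM + 1 (adjusted p = 1.66e-05). AGABI2DRAFT_148454 rose by 0.75 ± 0.22, and AGABI2DRAFT_208610, with 4.40 and 3.62 FPKM on day 39 and 1.82 and 2.40 on day 27, by 0.69 ± 0.18 (adjusted p = 0.0137 and 0.00809). AGABI2DRAFT_47539 rose by 0.55 ± 0.17 and AGABI2DRAFT_145829 by 0.41 ± 0.15 (adjusted p = 0.0167 and 0.0313). AGABI2DRAFT_117638 fell by 0.63 ± 0.13, the single fall in this strain (adjusted p = 0.00184).

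**Figure D3:**
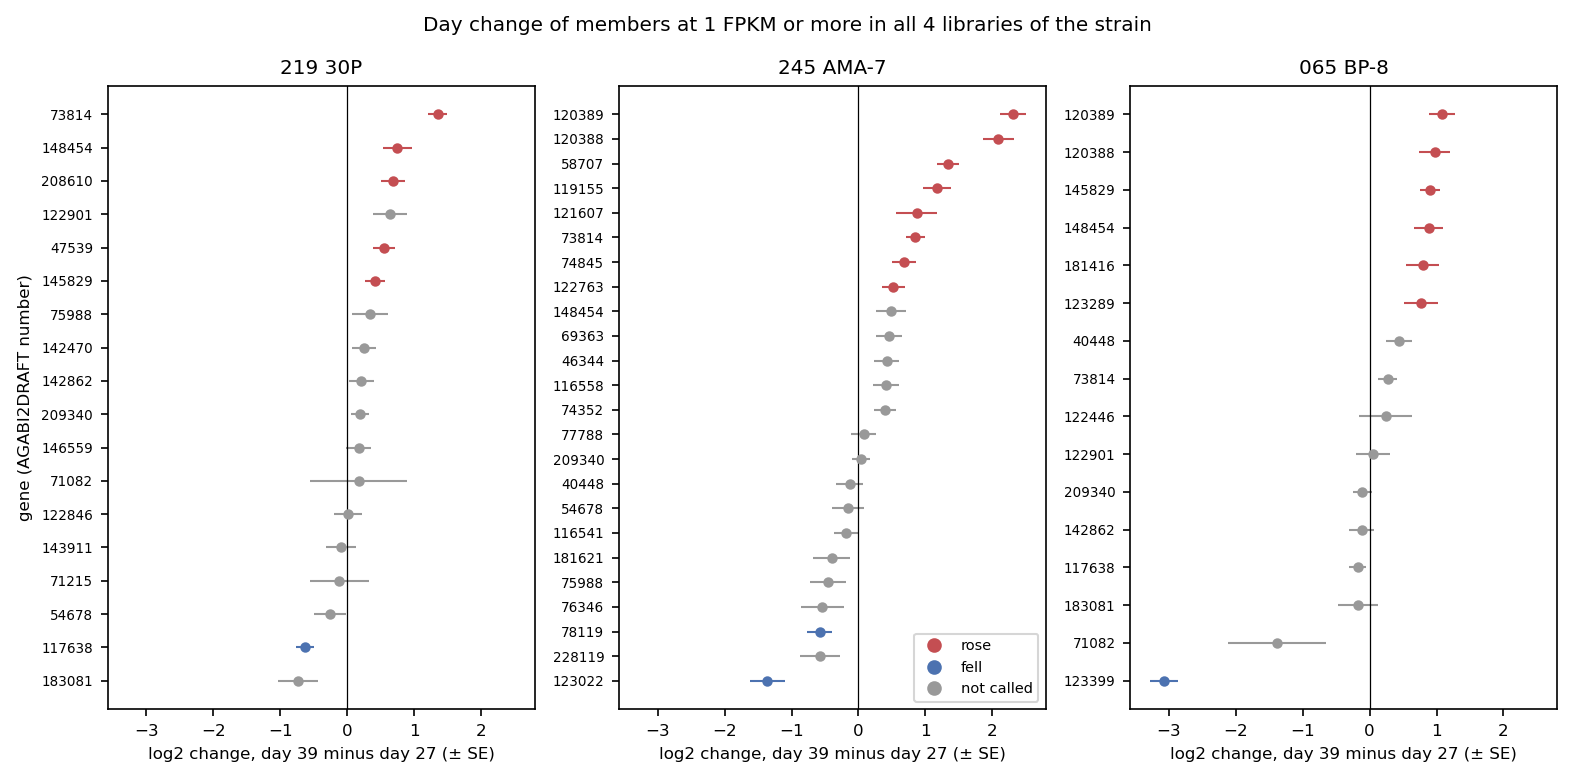
Log2 change of FPKM + 1, day 39 minus day 27, with the standard error from limma, for genes at 1 FPKM or more in all 4 libraries of the strain. Red points rose, blue points fell and grey points were not called; AGABI2DRAFT_120389 and AGABI2DRAFT_120388 lead in 245 AMA-7 and 065 BP-8, and AGABI2DRAFT_123399 lies far to the left in 065 BP-8.

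In all 3 strains the share of the genes called was below that of all genes tested. For all genes tested there was no requirement of 1 FPKM in all 4 libraries of the strain. These shares and the medians that follow thus rest on unlike filters. The part of that requirement in the gap was not tested. The median log2 change of the genes was 0.20 in 219 30P, 0.41 in 245 AMA-7 and 0.26 in 065 BP-8, beside -0.07, 0.16 and 0.07 for all genes. With median-ratio scaling the medians of these genes were 0.28, 0.26 and 0.19, beside 0.00 for all genes in each strain. With quantile normalization they were 0.17, 0.09 and 0.01, beside -0.04, -0.01 and -0.05 for all genes. The size of the value in 245 AMA-7 and 065 BP-8 thus depends on which scaling is used. The median level of these genes was also lower than that of all expressed genes, as given above, and the part of level in the number of calls was not tested. Of the 23 calls, 10 held under every alternative in which they were tested. These were AGABI2DRAFT_120388 and AGABI2DRAFT_120389 in both strains, AGABI2DRAFT_73814 in 219 30P and 245 AMA-7, AGABI2DRAFT_119155 and AGABI2DRAFT_123022 in 245 AMA-7, and AGABI2DRAFT_123399 and AGABI2DRAFT_145829 in 065 BP-8. The other 13 were lost with another pseudocount, another scaling or without a single library.

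In 219 30P the rise of AGABI2DRAFT_145829 was lost without any 1 of the 4 libraries (adjusted p of 0.0532 to 0.151), and so was that of AGABI2DRAFT_47539 (0.0528 to 0.0672). Without replicate 1 of day 27 or replicate 1 of day 39, AGABI2DRAFT_148454 had 0.0804 and 0.0643 there, and AGABI2DRAFT_208610 had 0.0627 and 0.0645. In 245 AMA-7, without replicate 1 of day 27 or replicate 1 of day 39, the adjusted p was 0.298 and 0.16 for AGABI2DRAFT_121607, 0.111 and 0.121 for AGABI2DRAFT_122763, and 0.0994 and 0.153 for AGABI2DRAFT_78119. The change of AGABI2DRAFT_121607 was 0.38 without replicate 1 and 1.36 without replicate 2 of day 27, and without replicate 2 of day 39 its adjusted p was 0.0607. That of AGABI2DRAFT_78119 was 0.0537 without replicate 2 of day 27. In 065 BP-8 the adjusted p of AGABI2DRAFT_181416 was 0.138 without replicate 1 of day 27, where its change was 0.46, and 0.105 without replicate 2 of day 39. That of AGABI2DRAFT_123289 was 0.0682 and 0.0728 without replicates 1 and 2 of day 27, and 0.206 without replicate 2 of day 39, where its change was 0.40. That of AGABI2DRAFT_148454 was 0.0509 without replicate 1 of day 39, and without replicate 1 of day 27 its change was 0.56. The change of AGABI2DRAFT_120388 was 0.62 in 065 BP-8 without replicate 2 of day 27 and stayed called. The calls of AGABI2DRAFT_58707 and AGABI2DRAFT_74845 in 245 AMA-7 and AGABI2DRAFT_117638 in 219 30P held without any single library and were lost with a pseudocount of 0.1 FPKM (adjusted p = 0.0811, 0.341 and 0.0633).

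Whether the day change of a gene differed between strains could be asked for the 14 genes expressed in more than 1 strain. The F test over 219 30P, 245 AMA-7 and 065 BP-8 passed for 5 of them (35.7%, against 55.9% of all genes tested). In 4 of the 5 the gene is silent in 1 of the strains, which sets its day change there near 0. Day changes were therefore also compared directly between the strains that express a gene, a comparison chosen after seeing the data, with 20 pairs in all and p-values adjusted over all genes. Of the 20 pairs, 4 differed, in 3 genes.

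The day change of AGABI2DRAFT_73814 in 065 BP-8 was 1.08 ± 0.19 lower on the log2 scale than in 219 30P, written -1.08 as 065 BP-8 minus 219 30P (limma, adjusted p = 0.00294, where 29.4% of all genes differed). Against 245 AMA-7 the difference was -0.59 ± 0.19 (adjusted p = 0.0409, 32.7% of all genes), and between 245 AMA-7 and 219 30P it was -0.50 ± 0.19 (adjusted p = 0.056, 45.5% of all genes). The gene thus more than doubled in 219 30P and had a log2 change of 0.27 in 065 BP-8 (adjusted p = 0.112). For AGABI2DRAFT_120389 and AGABI2DRAFT_120388 the day change in 065 BP-8 was below that in 245 AMA-7, by -1.23 ± 0.28 and -1.12 ± 0.33 (adjusted p = 0.00862 and 0.0277). For AGABI2DRAFT_145829 the difference between 065 BP-8 and 219 30P was 0.49 ± 0.21 (adjusted p = 0.101) and for AGABI2DRAFT_117638 it was 0.45 ± 0.18 (adjusted p = 0.0886). Among the called pairs, AGABI2DRAFT_73814 in 065 BP-8 against 219 30P held under every alternative tested (adjusted p of at most 0.0126), and AGABI2DRAFT_120389 was lost only with a pseudocount of 0.1 FPKM (0.0636). AGABI2DRAFT_120388 was lost with that pseudocount (0.107), without any 1 of the 4 libraries of 245 AMA-7 (0.0599 to 0.0843) and without replicate 1 of 065 BP-8 on day 27 (0.0742) or on day 39 (0.0986). AGABI2DRAFT_73814 in 065 BP-8 against 245 AMA-7 was called without replicate 2 of day 27 of either strain and lost without any other library (0.0536 to 0.129). It was also lost with median-ratio scaling (0.0637), quantile normalization (0.0798) and a pseudocount of 5 FPKM (0.0627). Some uncalled pairs passed elsewhere. With quantile normalization AGABI2DRAFT_75988 in 245 AMA-7 against 219 30P differed by -1.04 (limma, adjusted p = 0.0438), where the main fit gave -0.80. Without replicate 2 of 219 30P on day 39 that difference was -1.28. For 065 BP-8 minus 219 30P, AGABI2DRAFT_71082 had -1.55 and AGABI2DRAFT_183081 had 0.55. Without replicate 2 of 065 BP-8 on day 27 these became -3.09 and 1.12. With a pseudocount of 5 FPKM the adjusted p was 0.0304 for AGABI2DRAFT_145829, 0.0305 for AGABI2DRAFT_117638 and 0.00688 for AGABI2DRAFT_73814 in 245 AMA-7 against 219 30P. The last pair also passed with median-ratio scaling (0.0102), with quantile normalization (0.00589), and without replicate 1 (0.0396) or replicate 2 (0.0395) of 065 BP-8 on day 27, or replicate 1 of 245 AMA-7 on day 27 (0.0424).

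The same cut-offs applied to each strain in turn show how common such genes are. Among the 9520 genes listed in all files, 25 were under 0.5 FPKM in all 4 libraries of A15 and at 1 FPKM or more in all 4 of another strain. The counts were 68 for 219 30P, 64 for 245 AMA-7 and 73 for 065 BP-8. A gene at 0 in all A15 libraries is never listed, so the A15 count leaves such genes out. With unlisted genes taken as 0 in A15 the counts were 41 for A15, 80 for 219 30P, 68 for 245 AMA-7 and 80 for 065 BP-8. At a level of 5 FPKM or more in the other strain, 8 listed genes were silent in A15, 29 in 219 30P, 30 in 245 AMA-7 and 31 in 065 BP-8. In each of these counts A15 had the fewest silent genes of the strains, a description with no test. The counts at 5 FPKM again leave out the genes unlisted for A15.

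**Figure D4:**
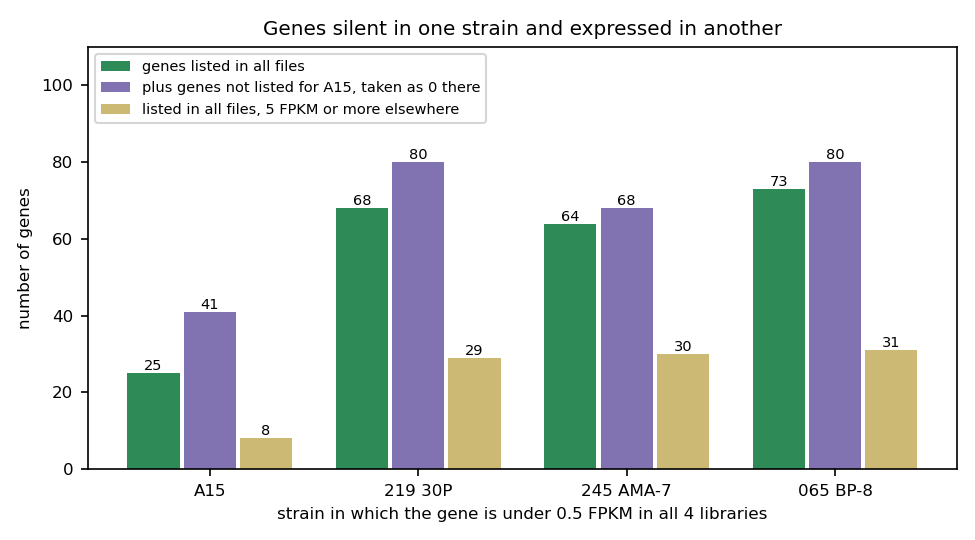
Number of genes under 0.5 FPKM in all 4 libraries of the named strain and at 1 FPKM or more (green, purple) or 5 FPKM or more (yellow) in all 4 libraries of another. A15 has the lowest bar of each colour, with 25, 41 and 8 genes.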

How the data were processed

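The authors' deposited tables hold 1 value per gene and library, taken here to be FPKM. The unit was inferred from the values, which have 2 decimals and sums that differ between libraries. BWA, Bowtie and RSEM appear in the submitters' processing notes, without versions or roles. No build is named for the files. The files hold no read counts, so no counting intervals are given. The 58 genes and the gene lists were chosen with earlier results of these data known.

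The day fit used limma 3.58.1 in R 4.3.3 (limma-trend, log2(FPKM + 1)) on the 12 libraries of 219 30P, 245 AMA-7 and 065 BP-8, so that genes unlisted for A15 entered it. It tested 9049 genes with 1 FPKM or more in 2 or more libraries, with 6 residual degrees of freedom and 1 mean per strain and day. Of the 58 genes 54 passed that filter. The comparison of neighbours with A15 used all 16 libraries and 9098 genes listed in all files and past the same filter. A fold change on this scale understates changes of low genes. The fit was first tested on simulated data.

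Neighbours are the nearest protein-coding genes in RefSeq's table of Agabi_varbisH97_2 among those also present in the data. There, 10373 of the 10438 identifiers matched. Annotated genes absent from the data were passed over, so such a gene may lie between neighbours. RefSeq's table was used for names and order only. It names no scaffolds, so a drop in the start position was taken as a scaffold's end. Alternatives were other cut-offs, pseudocounts of 0.1 and 5 FPKM, median-ratio and quantile scaling, other filters, a replicate block, all 16 libraries in 1 fit, leaving out each library, and, chosen after seeing the data, day changes compared between expressing strains only. A planned list of closest protein matches was not made, since no protein sequences were used here. Genes named in the text follow a rule on level, day change, position and distance to the cut-offs, which took 40 genes. Others described were chosen after their values were seen. Other steps ran in Python 3.11.15 (pandas 2.3.3; numpy 2.4.6), with figures from matplotlib 3.10.9.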

Additional observations from a re-analysis of the deposited data

Results flagged for a closer look

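The day change differed between strains, by the F test over 219 30P, 245 AMA-7 and 065 BP-8, for 5 of the 14 genes expressed in more than 1 of them (35.7%, against 55.9% of all genes tested). The adjusted p was 0.000387 for AGABI2DRAFT_120389, 0.00191 for AGABI2DRAFT_120388, 0.0034 for AGABI2DRAFT_73814, 0.00867 for AGABI2DRAFT_145829 and 0.0213 for AGABI2DRAFT_117638. AGABI2DRAFT_73814 is expressed in all 3 strains, while each of the others is silent in 1. Compared directly between the strains that express them, AGABI2DRAFT_145829 (adjusted p = 0.101) and AGABI2DRAFT_117638 (adjusted p = 0.0886) were not called. Over leaving out single libraries the adjusted p stayed at or below 0.0026 for AGABI2DRAFT_120389, 0.00992 for AGABI2DRAFT_120388, 0.0133 for AGABI2DRAFT_73814 and 0.0337 for AGABI2DRAFT_145829. For AGABI2DRAFT_117638 it was 0.054 without replicate 1 and 0.0707 without replicate 2 of 219 30P on day 27, 0.0751 without replicate 1 of 219 30P on day 39, and 0.0518 without replicate 2 of 245 AMA-7 on day 39. With a pseudocount of 0.1 FPKM it was 0.0601, and for AGABI2DRAFT_145829 quantile normalization gave 0.0523.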

How the results depend on the processing

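The number of genes that meet the rule was 93 with a cut-off of 1 FPKM in A15 and 20 with 5 FPKM in the other strain, and 57 to 65 when single libraries were left out. The genes silent at 5 FPKM elsewhere were 29 in 219 30P, 30 in 245 AMA-7, 31 in 065 BP-8 and 8 in A15. At 1 FPKM elsewhere and with unlisted genes at 0 there were 41 in A15. With a pseudocount of 0.1 FPKM the day calls among these genes were 2 in 219 30P and 5 in 245 AMA-7, while 245 AMA-7 had 14 with a pseudocount of 5 FPKM and 14 with no filter. A fit on all 16 libraries, which leaves out unlisted genes by construction, gave 8 in 219 30P, 5 in 245 AMA-7, 3 in 065 BP-8 and 3 strain differences. Comparing expressing strains only also left 3. Without single libraries there were 2 to 5 day calls in 219 30P (2 without replicate 1 of day 27 and 3 without replicate 1 of day 39), 7 to 10 in 245 AMA-7, 5 to 7 in 065 BP-8 and 4 to 7 strain differences. The neighbours called against A15 were 30 to 33, 33 to 35 and 30 to 34. For all genes the ranges were 4753 to 4875, 4624 to 4888 and 4805 to 5467 by day, 4097 to 5710 for the strain difference, and 4297 to 4530, 4317 to 4723 and 3578 to 4259 against A15. The day change of AGABI2DRAFT_71082 in 065 BP-8 reversed to 0.16 without replicate 1 of day 27 and was -2.92 without replicate 2.

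Of 23 day calls, 11 were lost with a pseudocount of 0.1 FPKM, 5 with quantile normalization, 2 with median-ratio scaling and 10 without some single library, and none reversed. The cause was not tested. Scaling changed the median day change of all genes in 245 AMA-7, which was 0.00 with median-ratio scaling and 0.16 as deposited; the 24 genes' medians were 0.26 and 0.41, and 0.09 with quantile normalization. With the replicate number as a block all 23 calls held, and there were 7 day calls in 219 30P, 10 in 245 AMA-7 and 7 in 065 BP-8, and 5 strain differences. The difference of AGABI2DRAFT_73814 between 065 BP-8 and 245 AMA-7 had an adjusted p of 0.0545 with that block. The numbers did not pair the samples, with correlations of -0.13 to 0.12 over 15 pairs of groups.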
